A study of Mus musculus with 8 samples.

Results

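The genes of the IL-10 cytokine family described here are the IL-20 subfamily ligands Il19, Il20 and Il24 and the ligand Il10, with the receptor chains Il20ra, Il20rb, Il22ra1, Il10ra and Il10rb. These 9 genes were taken by name from the 18901 genes of the deposited table, and all 9 had the 10 counts over the 8 mice that were required for testing, as had 17124 genes in all. RNA came from cheek skin of 7-week-old mice that had all received 10 µg of the itch peptide BNP, 5 h after a 30 min recording of behaviour. TBX20fl/fl;K14-Cre mice (n = 4) carry floxed Tbx20 alleles and a Cre recombinase driven by the keratin 14 promoter, which removes exons 2 and 3 in basal keratinocytes, and their littermates of genotype TBX20fl/fl (n = 4) carry the same floxed alleles without Cre. They are called knockout and control mice in what follows. Both groups were injected with BNP, so a difference between them is one between genotypes in injected skin. Whole skin was sequenced, so cells in which the promoter is silent, such as leukocytes and fibroblasts, kept the floxed gene and contributed to every value. In such bulk RNA, fewer cells of a type and less RNA per cell cannot be told apart.

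IL-19, IL-20 and IL-24 signal through a heterodimer of IL-20RA and IL-20RB, and IL-20 and IL-24 also through IL-22RA1 paired with IL-20RB. IL-22RA1 further pairs with IL-10RB to bind IL-22, and IL-10RB pairs with IL-10RA to bind IL-10. All of these receptors act through Janus kinases and STAT proteins, STAT3 above all. In skin, the receptors of the IL-20 subfamily sit on keratinocytes, in which the ligands drive hyperplasia, antimicrobial peptides and chemokines, whereas IL-10 comes mainly from leukocytes and restrains inflammatory cytokine production by myeloid cells.

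The 4 ligand genes form a cluster on mouse chromosome 1 (GRCm38, coordinates of the deposited table). From low to high coordinates they are Il24 (chr1:130882074-130887411, minus strand), Il20 (chr1:130906985-130911296, minus strand), Il19 (chr1:130932656-130945457, minus strand) and Il10 (chr1:131019845-131024970, plus strand). No other gene of the table lies in this span of 142.9 kb. The receptor genes are dispersed, with Il20ra at chr10:19711673-19760053 (plus strand), Il20rb at chr9:100457719-100491480 (minus strand), Il22ra1 at chr4:135728159-135755383 (plus strand), Il10ra at chr9:45253837-45269149 (plus strand) and Il10rb at chr16:91406157-91425834 (plus strand). For 8 of the 9 genes, no stretch of 50 bases, the read length, occurred in an annotated transcript of another gene. In Il10rb 13.9% of such stretches were shared with the overlapping GENCODE gene Gm21970 on the same strand, so its counts are less certain. Il20ra overlaps an antisense gene, Gm33332, whose reads cannot be told apart from its own without strand.

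Upstream sequence is shown for Il19, 1 of the 2 clustered ligands whose groups separated (the other, Il10, was not matched to a window), and for Il22ra1 and Il20ra, the chains that pair with IL-20RB. RefSeq promoter windows (GRCm38.p6) were found for 5 of the 9 genes, Il20, Il19, Il22ra1, Il20rb and Il20ra. The 250 bases before each start were searched on both strands for a T-box core (GGTGTGA), a STAT motif (TTCNNNGAA) and an AP-1 motif (TGANTCA), none of which overlapped another in these windows. The sequences run 5′ to 3′ on the gene's strand up to its start, or up to the first base that a GENCODE exon covers, with motif matches in capitals. The Il19 window is chr1:130940116-130940365 (minus strand), inside the gene span of the deposited table, which includes longer transcripts. The Il22ra1 window is chr4:135727909-135728158 (plus strand) and the Il20ra window chr10:19712337-19712569 (plus strand), which also lies inside its deposited gene span. Starts are those of RefSeq.
Il19: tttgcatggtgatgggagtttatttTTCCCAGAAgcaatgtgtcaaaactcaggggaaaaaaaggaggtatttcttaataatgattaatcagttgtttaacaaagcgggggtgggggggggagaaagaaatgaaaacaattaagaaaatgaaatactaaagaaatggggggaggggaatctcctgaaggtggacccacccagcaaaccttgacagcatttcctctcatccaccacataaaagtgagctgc
Il22ra1: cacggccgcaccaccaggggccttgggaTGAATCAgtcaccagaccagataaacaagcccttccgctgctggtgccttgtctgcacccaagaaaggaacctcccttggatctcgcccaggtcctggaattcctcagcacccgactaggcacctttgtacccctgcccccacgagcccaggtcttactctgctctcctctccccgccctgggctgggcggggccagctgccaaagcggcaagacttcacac
Il20ra: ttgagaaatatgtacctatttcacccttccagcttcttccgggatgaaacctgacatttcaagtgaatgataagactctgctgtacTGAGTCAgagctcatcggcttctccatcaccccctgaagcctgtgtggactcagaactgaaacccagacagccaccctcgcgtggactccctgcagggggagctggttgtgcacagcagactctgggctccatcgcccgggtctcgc

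The Il19 window held a STAT match that began 225 bases before the start, and 7.02% of the 32851 promoters of the same length held one. AP-1 matches began 222 bases before the start of Il22ra1 and 164 bases before the RefSeq start of Il20ra, and 6.75% of promoters held one. The T-box core was absent from all 5 windows and present in 3.33% of promoters. These are matches of letters in a short window and do not show binding.

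The total of deposited estimated counts was 19260856 to 19880654 per knockout mouse and 16056282 to 19617762 per control mouse. The targeted gene Tbx20 had 0 to 2.09 counts per knockout mouse and 0 to 3.01 per control mouse, too few to check the deletion. One library stood apart. In control replicate 2, the median Spearman correlation with the other mice was 0.919, against 0.974 to 0.990 in the other 7, and its deviation from them fell with transcript length (rho -0.78 over 13296 genes, against -0.55 in control replicate 3 and -0.06 to 0.47 in the others). The ligand transcripts are short, with 7.11% to 12.5% of these genes having shorter ones, while the transcript of Il22ra1 is longer than that of 87.6%. Values without control replicate 2 or with the trend with length removed are therefore given beside results that they moved. Markers of keratinocytes (Krt5, Krt14, Krt1, Krt10, Trp63, Dsg3 and Col17a1) were present in every mouse, and their summed level ranged from 5752 to 7558 CPM (counts scaled to library size) in knockout mice and from 6102 to 7786 CPM in control mice.

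Il10 and Il19 were the members with lower levels in knockout skin in every mouse, and neither passed correction for all genes tested. After Benjamini-Hochberg adjustment, edgeR's quasi-likelihood fit called none of the members at 0.05, and none of the 17124 genes tested (0.0%, smallest adjusted p = 0.498). The same held for limma on log2(FPKM + 1), FPKM being fragments scaled to transcript length and library depth, in 15969 genes (0.0%, smallest adjusted p = 0.457). At an unadjusted p under 0.05, 1431 genes were called by edgeR and 1046 by limma. Among the members, 2 were lower at that threshold, where 5.91% of all genes were, and 0 were higher, where 2.45% of all genes were. The FPKM ranges of the groups did not overlap for 2 members, both lower in knockout mice, and for 1.92% of the 15968 genes whose mean FPKM reached 0.1. Ranges that lay apart in the other direction were found in 5.45% of these genes and in 0 members. On TMM-normalised CPM the split over 15935 genes was 3.33% lower and 3.77% higher, and the same 2 members were lower without overlap. The fitted log2 fold change was under 0 in 7 of the 9 members and in 47.5% of all genes, with medians of -0.41 and 0.03.

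**Figure D1:**
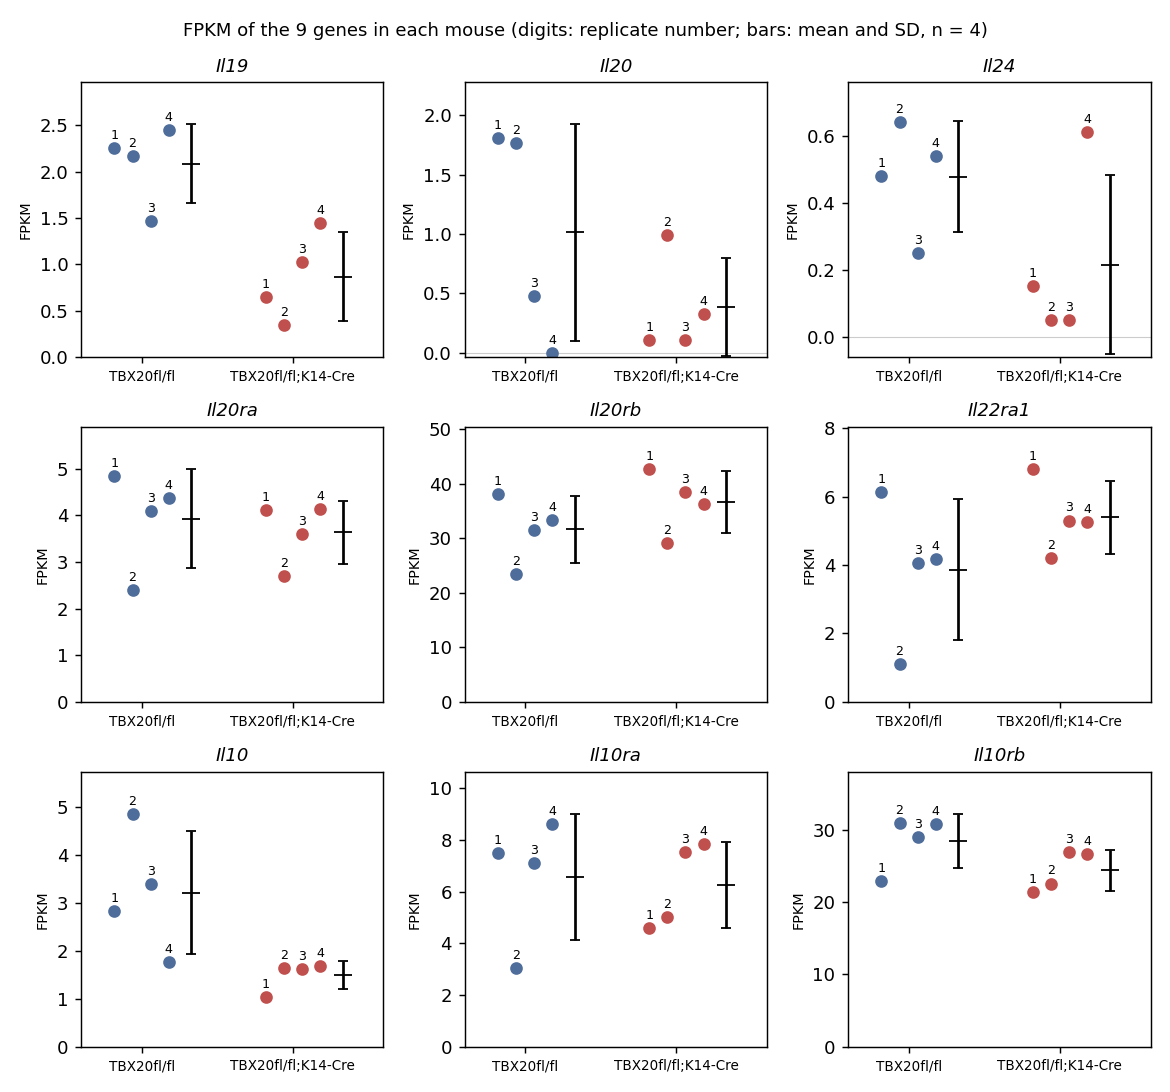
FPKM of the 9 genes in each mouse, TBX20fl/fl in blue and TBX20fl/fl;K14-Cre in red, with the replicate number over each point and the mean and SD (n = 4) beside it. Il19 and Il10 are the panels in which all red points lie below all blue ones, and replicate 2 of TBX20fl/fl is the lowest blue point for Il20ra, Il20rb, Il22ra1 and Il10ra.

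Il10 encodes the founding cytokine of the family, an inhibitor of inflammatory cytokine production. Its FPKM was 1.05, 1.65, 1.62 and 1.68 in knockout replicates 1 to 4 and 2.84, 4.86, 3.40 and 1.77 in control replicates 1 to 4. All knockout mice lay below all control mice, although the highest of the first group and the lowest of the second, control replicate 4, lay close together. The means were 1.50 ± 0.30 (SD, n = 4) and 3.22 ± 1.29 (SD, n = 4). This difference of -1.72 FPKM had p = 0.0286 in a two-sided exact permutation test over the 70 assignments of the mice, the smallest p these allow. Over the 4 pairs that share a number in the labels, a pairing that is assumed here, the exact sign-flip test gave p = 0.125. This was also the smallest possible, with Il10 lower in 4 of 4 pairs. The counts behind these values were 25.4 to 42.0 in knockout mice and 42.5 to 98.0 in control mice. In edgeR's fit the log2 fold change of Il10 was -1.34 ± 0.40 (SE), a 2.53-fold lower level, with an unadjusted p of 0.0076 and an adjusted p of 0.498. The log2 fold change of Il10 was nearer 0 without control replicate 2, at -0.89, and with the length trend removed, at -0.90. The groups did not overlap either on TMM-normalised CPM or after the length trend was removed.

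Il19 encodes an IL-20 subfamily cytokine that keratinocytes and macrophages make in inflamed skin. Its FPKM was 0.65, 0.34, 1.03 and 1.45 in knockout mice and 2.25, 2.17, 1.47 and 2.45 in control mice. The groups did not overlap, with knockout replicate 4 just under control replicate 3. The means were 0.868 ± 0.480 (SD, n = 4) and 2.08 ± 0.43 (SD, n = 4), and the exact permutation test gave p = 0.0286. Il19 was lower in 4 of 4 pairs of the same number, with p = 0.125 in the exact sign-flip test. These values rest on 7 to 30 counts per knockout mouse and 29.0 to 46.0 per control mouse. The log2 fold change of Il19 in edgeR was -1.42 ± 0.42 (SE), a 2.67-fold lower level, with an unadjusted p of 0.0079 and an adjusted p of 0.498. It was -1.24 without control replicate 2. With the length trend removed it was -1.004, and the groups then overlapped.

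Il20 and Il24 encode the closest relatives of IL-19, and both rested on few counts in most mice, 0 to 34.8 for Il20 and 1 to 13 for Il24. Il20 had an FPKM of 0.11, 0.99, 0.11 and 0.33 in knockout mice and of 1.81, 1.77, 0.48 and 0.00 in control mice. It was high in control replicates 1 and 2, was listed at 0 in control replicate 4, where a count of 0 allows up to 3 counts, and the groups overlapped. Its means were 0.385 ± 0.416 (SD, n = 4) and 1.02 ± 0.92 (SD, n = 4), with p = 0.257 in the exact permutation test. The log2 fold change was -1.64 ± 1.06 (SE), and control replicate 4 decided its nominal call, since the unadjusted p was 0.154 with that mouse and 0.0305 without it. The log2 fold change of Il20 was -1.08 without control replicate 2, -1.15 with the length trend removed and -2.71 without knockout replicate 2, the last with an unadjusted p of 0.0502. Il24, also known for its action on tumour cells, had an FPKM of 0.15, 0.05, 0.05 and 0.61 in knockout mice and of 0.48, 0.64, 0.25 and 0.54 in control mice. It was low in 3 of the 4 knockout mice and as high in replicate 4 as in control mice. The counts of Il24 were 1 to 13 and 5 to 11, and the exact permutation test gave p = 0.143. Its log2 fold change was -1.31 ± 0.75 (SE), -1.005 without control replicate 2 and -0.89 with the length trend removed. Without knockout replicate 4 the log2 fold change of Il24 was -2.65, with an unadjusted p of 0.0033. The groups of 3 members, all lower, then did not overlap, as for 3.49% of all genes. Without control replicate 1, 3 members were lower without overlap (Il19, Il10 and Il10rb), as were 5.20% of all genes, and 1 was higher (Il22ra1), as were 10.7%. Leaving out any other mouse left Il19 and Il10 as the members without overlap.

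Summed over Il19, Il20 and Il24, a knockout mouse had 18 to 49 counts and a control mouse 43.0 to 90.8. The member that made up most of that sum differed between mice, Il20 leading in knockout replicate 2 and Il19 in the other 7 mice. Across the 8 mice, log2 CPM of Il19 correlated with that of Il24 at r = 0.87 and with that of Il20 at r = 0.22. Il10 correlated with Il19 at r = 0.70, with Il20 at r = 0.72 and with Il24 at r = 0.60. The points share the genotype difference and the length biases of their libraries. Around the mean of each genotype, the values for Il19 with Il24 and with Il20 were 0.76 and -0.09, and those for Il10 with Il19, Il20 and Il24 were 0.24, 0.75 and 0.22.

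**Figure D2:**
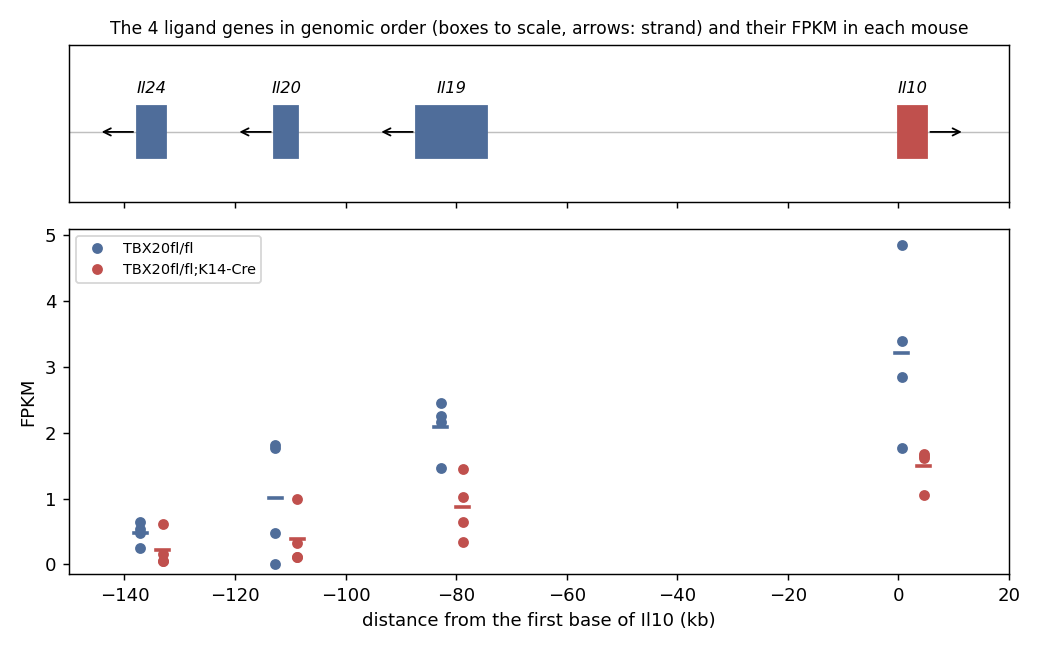
Top, the 4 ligand genes drawn to scale by distance in kb from the first base of Il10, with arrows for the strand. Bottom, their FPKM in each mouse with bars for group means, blue for TBX20fl/fl and red for TBX20fl/fl;K14-Cre: all group means are lower in red, and the groups separate for Il19 and Il10 alone.

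Around the cluster, 8 neighbouring genes were compared in the same fit, from Fcamr, 56.2 kb before Il24, to Ikbke, 230 kb after Il10. In edgeR 0 of them had an unadjusted p under 0.05, the smallest being 0.197. Of these, 4 were lower and 4 higher, and their log2 fold changes ran from -0.61 to 0.63 with a median of 0.08. Mapkapk2, the kinase gene 28.7 kb beyond Il10, had a log2 fold change of -0.01 ± 0.15 (SE). Fcmr, 1.28 kb before Il24 and encoding an Fc receptor for IgM, had one of -0.61 ± 0.86 (SE) at 0.0875 and 0.125 mean FPKM. Dyrk3 had the smallest p and was higher, with a log2 fold change of 0.63 ± 0.45 (SE).

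Of the receptor chains, Il20rb was the most abundant. The chain is common to both receptor complexes of the IL-20 subfamily. Its FPKM was 42.7, 29.2, 38.6 and 36.3 in knockout mice and 38.2, 23.5, 31.6 and 33.4 in control mice. The ranges overlapped widely, and replicate 2 was the lowest mouse of each group. In FPKM, Il20rb was higher in 4 of 4 same-numbered pairs, with p = 0.125 in the exact sign-flip test. On TMM-normalised CPM replicate 2 went the other way, at 66.5 in the knockout and 77.6 in the control mouse. The means were 36.7 ± 5.7 (SD, n = 4) and 31.7 ± 6.1 (SD, n = 4), with p = 0.257 in the exact permutation test. The log2 fold change of Il20rb was 0.07 ± 0.16 (SE) and turned to -0.029 without knockout replicate 1. It was 0.11 with the length trend removed.

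Il20ra, the partner chain that all 3 IL-20 subfamily ligands use, had an FPKM of 4.12, 2.69, 3.60 and 4.14 in knockout mice and of 4.85, 2.41, 4.09 and 4.37 in control mice. The groups overlapped, although control replicate 2 was the only control mouse below 4.09 FPKM, with means of 3.64 ± 0.68 and 3.93 ± 1.06 (SD, n = 4). In edgeR it had a log2 fold change of -0.25 ± 0.20 (SE), with p = 0.686 in the exact permutation test on FPKM. It was -0.16 with the length trend removed and -0.34 without control replicate 2, the latter with an unadjusted p of 0.0996, and the difference in log2(FPKM + 1) in limma went from -0.07 to -0.24 without that mouse.

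Il22ra1, the chain shared by IL-20, IL-24 and IL-22, had an FPKM of 6.80, 4.20, 5.30 and 5.27 in knockout mice. In control mice it was 6.12, 1.10, 4.07 and 4.18. Replicate 2 of the control mice lay far below all other mice, replicates 3 and 4 lay just below the knockout range, and replicate 1 lay within it. Its log2 fold change was 0.39 ± 0.35 (SE) with all mice, 0.13 without control replicate 2 and 0.14 with the length trend removed. Higher values in 4 of 4 pairs gave p = 0.125 in the exact sign-flip test, and the unpaired exact permutation test gave p = 0.229.

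Il10ra, the ligand-binding chain of the IL-10 receptor and largely a leukocyte gene, had an FPKM of 4.60, 5.02, 7.54 and 7.83 in knockout mice and of 7.49, 3.06, 7.09 and 8.62 in control mice. Its groups overlapped over most of their range, and control replicate 2 was again the lowest. Its log2 fold change was -0.19 ± 0.25 (SE), with p = 0.886 in the exact permutation test on FPKM, and -0.35 without control replicate 2. Il10rb, the widely expressed chain that IL-10 and IL-22 share, had an FPKM of 21.5, 22.6, 27.0 and 26.7 in knockout mice and of 22.9, 30.9, 29.1 and 30.8 in control mice. It was lower in 4 of 4 pairs, but control replicate 1 lay within the knockout range. The log2 fold change of Il10rb was -0.41 ± 0.20 (SE), with an unadjusted p of 0.0661 in edgeR and p = 0.143 in the exact permutation test. Without control replicate 1 its unadjusted p was 0.0183, and its log2 fold change was -0.22 without control replicate 2 and -0.21 with the length trend removed.

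**Figure D3:**
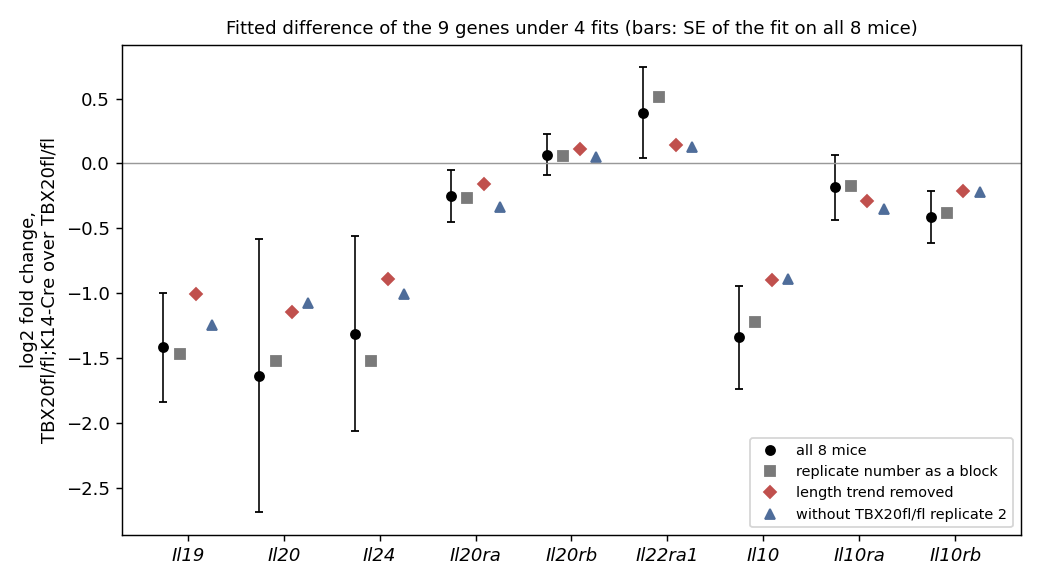
Log2 fold change of each member (TBX20fl/fl;K14-Cre over TBX20fl/fl) in edgeR, with all 8 mice (black, bars are the SE), with the replicate number as a block (grey squares), with the length trend removed (red diamonds) and without TBX20fl/fl replicate 2 (blue triangles). The ligands lie between -1.64 and -0.88 under all 4 fits, and the receptor chains between -0.41 and 0.51.

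By mean FPKM over the 8 mice, the members ranked Il20rb (34.2), Il10rb (26.4), Il10ra (6.41), Il22ra1 (4.63), Il20ra (3.78), Il10 (2.36), Il19 (1.48), Il20 (0.700) and Il24 (0.346). FPKM is per length, but the length trends of the libraries remain in it. Levels of genes with short and long transcripts can thus be compared only roughly. The values of Il10rb and Il20ra also carry the overlaps with other genes given above. Only the step from Il10rb to Il10ra had no overlap between mice, with Il10rb higher in 8 of 8 (exact sign-flip p = 0.0078, the smallest 8 mice allow). Il20rb exceeded Il10rb in 7 of 8 mice (exact sign-flip p = 0.0469). Il22ra1 and Il20ra did not differ beyond their spread (5 of 8 mice, exact sign-flip p = 0.133), and neither did Il20 and Il24 (5 of 8 mice, exact sign-flip p = 0.195). The mean of each receptor chain thus lay above that of each ligand, and in 7 of the 8 mice each chain exceeded each ligand. Control replicate 2 was the exception, with Il10 (4.86 FPKM) above Il10ra (3.06 FPKM), Il20ra (2.41 FPKM) and Il22ra1 (1.10 FPKM), and with Il19 and Il20 above Il22ra1 as well. The ranking pools both genotypes, and in control mice alone the mean of Il20ra (3.93 FPKM) was above that of Il22ra1 (3.87 FPKM).

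Within a mouse, the FPKM of Il20rb was 7.64 to 10.8 times that of its partner Il20ra. It was 6.23 to 21.3 times that of Il22ra1, the highest ratio being control replicate 2. Il10rb was 3.06 to 10.1 times as high as Il10ra, again with control replicate 2 at the top. Of 6 such ratios, that of Il20ra to Il22ra1 had groups that did not overlap. It was 0.606 to 0.786 in knockout mice and 0.792 to 2.19 in control mice, with p = 0.0286 in the exact permutation test and 0.171 after Benjamini-Hochberg adjustment over the 6 ratios. The value of 2.19 was control replicate 2. The transcript of Il22ra1 is longer than that of 87.6% of genes and that of Il20ra longer than 32.1%. The length trends of the libraries can therefore enter this ratio, which was not computed with the trend removed.

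Among 9 other ligands and receptors of the wider family, including the interferons that share its receptor fold, 8 were in the table and 6 had enough counts for testing. Of these 6, 4 were lower and 2 higher, and the median log2 fold change was -0.27. At an unadjusted p under 0.05, 2 were lower, where 5.91% of all genes were, and 0 at an adjusted one. With a mouse left out 0 to 3 were lower at an unadjusted p under 0.05, with 0 without knockout replicate 2 or 4. The count was 1 without knockout replicate 1 or 3 or control replicate 3 or 4. Without control replicate 1, 3 were lower and 1 higher, where 10.9% of all genes were lower and 3.21% higher. In the other fits that left out a mouse, 3.15% to 9.89% of all genes were lower. The replicate block left 1, Il22ra2, and removing the length trend gave 3. Il22, the ligand of IL-22RA1 and IL-10RB, was listed at 0 in all knockout mice and at 1 count in 2 control mice, and Ifnl2 at 1 count in 1 mouse, so neither was detectable at this depth. Il22ra2, the soluble decoy receptor of IL-22, had an FPKM of 8.97, 5.62, 7.19 and 6.82 in knockout mice and of 11.0, 13.0, 10.6 and 7.23 in control mice. Its ranges overlapped only through control replicate 4, and its log2 fold change was -0.76 ± 0.28 (SE), with an unadjusted p of 0.0232. Ifngr2, a chain of the interferon-gamma receptor, was lower without overlap, at 37.0 ± 1.0 against 41.3 ± 1.9 FPKM (SD, n = 4), with a log2 fold change of -0.33 ± 0.14 (SE). Ifnlr1, the interferon-lambda receptor chain, had the smallest p among those higher, with a log2 fold change of 0.37 ± 0.23 (SE).

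Of 12 genes for the kinases, STAT proteins and feedback inhibitors downstream of these receptors, 4 were lower and 8 higher, with a median log2 fold change of 0.10. The median turned to -0.08 without control replicate 2 and with the length trend removed. Socs3, the STAT3-induced inhibitor of cytokine receptors, was the 1 gene with an unadjusted p under 0.05, where 5.91% of all genes were lower. Its FPKM was 13.7, 20.2, 10.3 and 27.0 in knockout mice and 35.6, 20.9, 21.8 and 23.2 in control mice. The groups overlapped through knockout replicate 4, and the log2 fold change of Socs3 was -0.67 ± 0.29 (SE). With a mouse left out, 0 to 2 genes of this list were lower at an unadjusted p under 0.05. The count was 0 without knockout replicate 1, 2 or 3 or control replicate 1 or 2, and 1 gene was higher without control replicate 1. It was 2 without knockout replicate 4 or control replicate 4, where 4.10% and 9.89% of all genes were lower. With the length trend removed 3 were lower. Stat3 itself had one of 0.06 ± 0.27 (SE). Pias3, an inhibitor of STAT3, had the smallest p among the higher genes, at 0.31 ± 0.21 (SE).

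**Figure D4:**
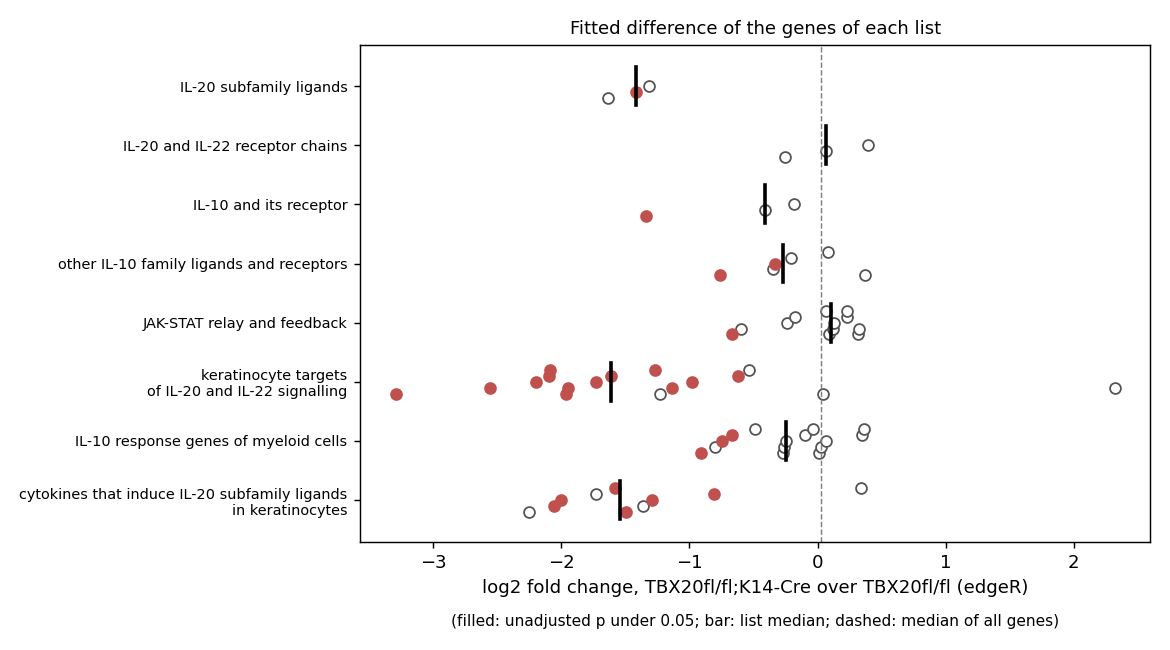
Log2 fold change in edgeR (TBX20fl/fl;K14-Cre over TBX20fl/fl) of each tested gene in 8 lists, filled where the unadjusted p is under 0.05, with a bar at each list's median and a dashed line at the median of all genes (0.03). The 3 IL-20 subfamily ligands, the keratinocyte targets and the inducing cytokines have medians of -1.42, -1.61 and -1.54, while the 3 IL-20 and IL-22 receptor chains, the JAK-STAT genes and Il10 with its receptor have medians of 0.07, 0.10 and -0.41. The lists were chosen with earlier results of these data known.

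Keratinocyte genes that IL-20 subfamily cytokines and IL-22 are known to induce were examined next. This list, like the others, was chosen with earlier results of these data known, so its counts are not independent support. Of 20 listed, 18 were in the table and 17 were tested. At an unadjusted p under 0.05, 13 were lower, where 5.91% of all genes were, and 0 higher, where 2.45% of all genes were. At an adjusted p, 0 passed. The median log2 fold change was -1.61, and it was -0.72 without control replicate 4 and -1.08 with the length trend removed. Lcn2, the siderophore-binding lipocalin, had an FPKM of 12.5, 16.3, 12.8 and 18.3 in knockout mice and of 29.5, 51.6, 29.3 and 47.0 in control mice. Its groups lay well apart, and its log2 fold change was -1.61 ± 0.30 (SE). Saa3, an acute-phase apolipoprotein, ranged from 5.92 to 18.6 FPKM against 24.1 to 147 FPKM, also without overlap. S100a9 ranged from 42.4 to 131 FPKM against 132 to 458 FPKM, and its dimer partner S100a8 had a log2 fold change of -2.10 ± 0.55 (SE). The chemokine genes Ccl20, Cxcl1 and Cxcl5 had log2 fold changes of -1.14, -1.73 and -1.97, the defensin genes Defb3 and Defb14 of -2.20 and -0.98, the former resting on 21 counts in control replicate 4 against 1 to 2 in every other mouse, and the metalloprotease gene Mmp3 of -0.62. The stress keratin genes Krt16, Krt6a and Krt6b had log2 fold changes of -1.95, -1.27 and -3.29, and control replicate 4 was far above all other mice for each. Krt6b, for example, was at 241 FPKM there and at 3.65 to 12.1 FPKM in the other 3 control mice. S100a7a, the psoriasin-related gene, was the tested gene with the smallest p among those higher, with a log2 fold change of 2.32 ± 1.04 (SE) carried by 47.7 FPKM in knockout replicate 2.

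The count of 13 was 13 with the replicate block too, 14 without control replicate 1 (where 10.9% of all genes were lower) or 3, 10 without control replicate 2, 7 without control replicate 4, 6, 9, 7 and 10 without knockout replicates 1, 2, 3 and 4 in turn, and 6 with the length trend removed. Neutrophil markers moved with this list, and S100a8 and S100a9 are in both. All 8 were lower in the fit, 6 at an unadjusted p under 0.05, where 5.91% of all genes were. Their summed level was 89.9 to 211 CPM in knockout mice and 222 to 704 CPM in control mice. None of the 8 was at 0 in all mice, and the part of neutrophils in these differences was not tested. For other leukocytes, summed mast cell and basophil markers were 532 to 572 CPM against 653 to 1380 CPM, with 4 of 7 lower at an unadjusted p under 0.05. This count held without control replicate 2 and with the length trend removed. The median log2 fold change of these markers went from -0.75 to -0.37 and -0.26 in these fits. Of 9 monocyte and macrophage markers 4 were lower at that threshold, and the sums overlapped, at 1527 to 2279 CPM against 1731 to 4039 CPM. That count was 1 without knockout replicate 1 or 2 or control replicate 2 or 3, and 2 without replicate 4 of either group or with the length trend removed. Of 6 T cell markers tested 2 were lower at that threshold, and the sums overlapped, at 32.5 to 40.6 CPM against 34.4 to 83.9 CPM. None of the 6 was called in edgeR with the replicate block, or without knockout replicate 2 or control replicate 2 or 3, and 1 was without knockout replicate 1 or with the length trend removed. The part of these cells in the values of Il10 and Il19 was not tested. Of 7 hair follicle markers 5 were higher at an unadjusted p under 0.05, where 2.45% of all genes were. Their sums were 80.5 to 3648 CPM against 33.9 to 259 CPM, with overlap between groups. Without knockout replicate 2, 0 were called and the median log2 fold change went from 3.00 to 0.67. The count was also 0 without control replicate 1 or 4, 2 without control replicate 3, 6 without knockout replicate 1 or 4, and 7 with the replicate block, where the median was 1.97.

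Genes that IL-10 is known to induce in myeloid cells were taken from a further list. Of 15 tested, 10 were lower and 5 higher, with a median log2 fold change of -0.25. At an unadjusted p under 0.05, 3 were lower (2 to 5 with a mouse left out, 5 without knockout replicate 4). With all mice 5.91% of all genes were lower at that threshold. Il1rn, the gene of the IL-1 receptor antagonist, was at 42.9, 52.0, 47.6 and 69.1 FPKM in knockout mice and at 93.0, 107.8, 67.4 and 74.6 FPKM in control mice. Only knockout replicate 4 and control replicate 3 crossed, and the log2 fold change of Il1rn was -0.91 ± 0.27 (SE). The others were Socs3, given above, and Fcgr1, the high-affinity IgG receptor, at -0.74 ± 0.24 (SE). Cd163, a scavenger receptor of macrophages, had the smallest p among those higher, at 0.36 ± 0.28 (SE).

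Of 12 listed cytokines known to induce the IL-20 subfamily in keratinocytes, 10 were tested. In the fit 9 were lower and 1 higher. At an unadjusted p under 0.05, 6 were lower, where 5.91% of all genes were, and 0 at an adjusted one. Their median log2 fold change was -1.54, and it was -1.06 without control replicate 2 and -1.21 with the length trend removed. The count ranged from 5 to 7 when a mouse was left out, where 3.15% to 10.9% of all genes were lower. Il1b, the IL-1β gene, was at 13.0, 38.0, 22.4 and 58.6 FPKM in knockout mice and at 89.9, 197.6, 57.1 and 110.5 FPKM in control mice. Il1a, the alarmin that keratinocytes store, was lower without overlap, at 14.5 ± 1.3 against 22.1 ± 3.4 FPKM (SD, n = 4), with a log2 fold change of -0.81 ± 0.22 (SE). Il6, Osm, Tnf and Ifng had log2 fold changes of -2.01, -1.50, -1.29 and -1.58. Ifng rested on 1 to 6 counts against 2 to 11, and it was no longer called with the length trend removed or in 6 of the 8 fits that left out a mouse, all but those without knockout replicate 3 or control replicate 4. Il17a and Il17f, at mean FPKM values of at most 0.15, had an unadjusted p of 0.0583 and 0.0541. Il13 was the gene higher in the fit, with a log2 fold change of 0.34 ± 0.45 (SE).

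The genes most like a member over the 8 mice were sought among 13292 others with a mean count of at least 50, by Pearson correlation of log2 CPM. For Il10, the ligand with the highest mean count, they were Il15 (r = 0.985), Snx10 (0.983), Zup1 (0.982), Gzma (0.977) and Rgs1 (0.977). Il15, which sustains natural killer and memory T cells, was at 13.0, 16.4, 15.3 and 20.0 FPKM in knockout mice and at 24.1, 42.8, 28.3 and 17.9 FPKM in control mice. As with Il10, control replicate 2 was the highest mouse and control replicate 4 the lowest of its group. Without control replicate 2 the 5 correlations with Il10 were 0.941 to 0.976 over 7 mice. For Il20rb, the receptor chain with the highest mean count, the genes were Crat (r = 0.985), Gnpat (0.970), Pxmp4 (0.970), Ces4a (0.961) and Larp1b (0.955), of which Crat encodes carnitine acetyltransferase. Their log2 fold changes lay between -0.001 and 0.16, against 0.07 for Il20rb. For Il19, added after its values were seen, they were Mmp3 (r = 0.958), Tmem117 (0.940), Ncf4 (0.938), Cd80 (0.934) and Nlrp1a (0.932). The points of each correlation share the 2 genotypes and the depth and length bias of their libraries.

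**Figure D5:**
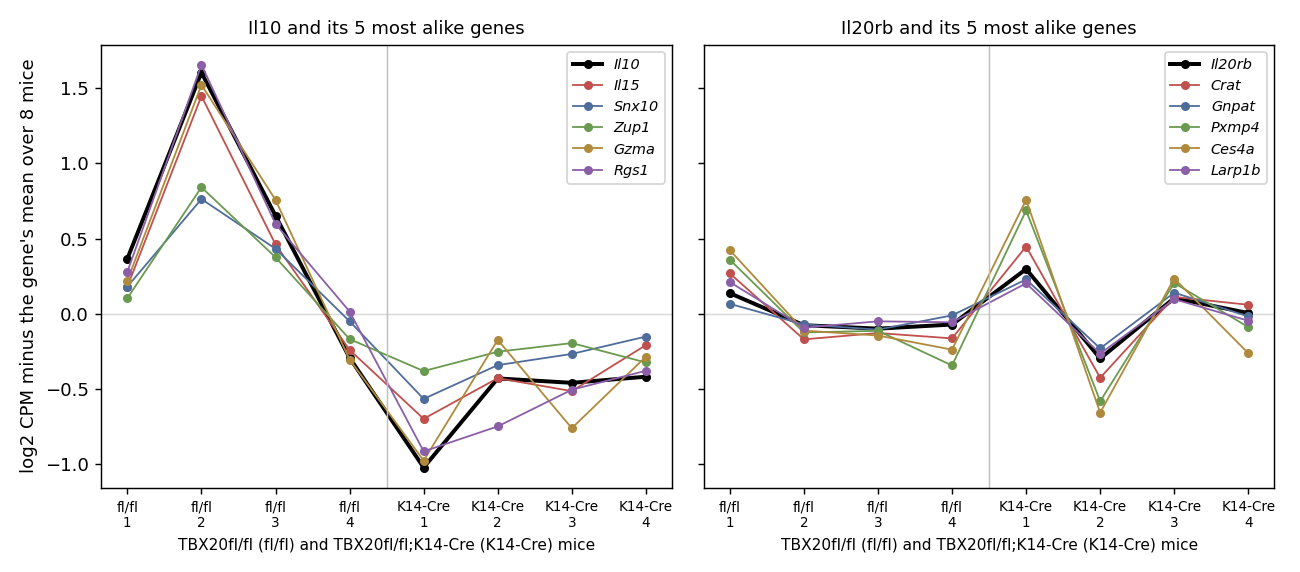
Log2 CPM of Il10 (left, black) and Il20rb (right, black) and of the 5 genes most correlated with each, as the difference from the gene's own mean over the 8 mice. Il10 and its set peak in TBX20fl/fl replicate 2 and are lowest in TBX20fl/fl;K14-Cre replicate 1, whereas Il20rb and its set are lowest in TBX20fl/fl;K14-Cre replicate 2 and, except for Larp1b, highest in replicate 1 of that group.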

How the data were processed

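Single-end 50-base reads from BNP-injected cheek skin were filtered with SOAPnuke and aligned with HISAT by the authors. The authors deposited 1 table with estimated counts (expected counts, not normalised, 69.0% of those above 0 not whole) and FPKM values per mouse, the latter from their Dr. Tom platform. The program behind the counts is not given in the sources used here. Columns of 17 comparisons by the authors (fold changes, p-values, q-values) and 40 of group means were not used.

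Counts were rounded, filtered at 10 counts over the 8 mice, scaled by TMM and compared with edgeR 4.0.16 (quasi-likelihood test) in R 4.3.3, with Benjamini-Hochberg adjustment over all genes. FPKM values were compared with limma 3.58.1 on log2(FPKM + 1) at a mean FPKM of at least 0.1, and for single members with two-sided exact permutation tests. Fitted fold changes use edgeR's default prior count. DESeq2 1.42.0, other normalisations and filters, a transcript length trend as an offset, a block for the replicate number and fits with 1 mouse left out were alternatives. The scripts, tested on simulated data, used Python 3.11.15, numpy 2.4.6 and pandas 2.3.3. At 16056282 to 19880654 counts per mouse, the counts behind low members limit their precision.

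The members and lists were chosen with earlier results of these data known. Named genes were the members, each list's gene with the smallest p in either direction, list genes with an unadjusted p under 0.05, and the 5 genes most correlated with Il10 and Il20rb. Stat3, Mapkapk2, Fcmr, Il17a, Il17f, Il22, Ifnl2 and the genes correlated with Il19 fall outside that rule and were named after their values were seen. Deviations of the 4 same-numbered pairs of mice from their group means correlated at r = 0.160 to 0.405 over 13298 genes. In the other 12 pairs they correlated at -0.518 to 0.426, and 3 of these exceeded 0.1. Knockout replicate 4 correlated better with control replicate 1 (0.426) than with control replicate 4 (0.160). Taking the replicate numbers to pair the mice is therefore an assumption, on which the sign-flip tests over 4 pairs and the replicate block rest. The mice are different animals, and the labels do not say what a number shares.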

Additional observations from a re-analysis of the deposited data

Results flagged for a closer look

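The FPKM of Il10 in TBX20fl/fl;K14-Cre replicate 1, at 1.05, stood apart from the other 3 mice of its group, which lay between 1.62 and 1.68. The gap was 0.905 of the group's range, above Dixon's 95% critical value for 4 samples. Of 18 groups of 4 values examined for the 9 members this was the 1 past that value, and chance alone puts about 1 in 20 past it. Leaving this mouse out gave a log2 fold change of -1.21 for Il10 in edgeR.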

How the results depend on the processing

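In edgeR, limma and DESeq2, no alternative brought any member past an adjusted p of 0.05, and the smallest adjusted p of a member was 0.159, for Il19 in DESeq2 (0.322 in limma). Over all genes, 0 passed under every alternative except DESeq2's Wald test, which called 10. Il10 and Il19 kept their direction in all 16 alternatives of the edgeR fit. With a mouse left out, the log2 fold change ranged from -1.58 to -0.89 for Il10 and from -1.77 to -1.15 for Il19. As pairs of the same replicate number, their FPKM differences of -1.72 and -1.22 had an exact sign-flip p of 0.125. Under a block for that number in edgeR, the log2 fold changes were -1.22 and -1.47. The block also left 1 of the 2 nominal calls among the wider family, and changed no adjusted call of a member. With the length trend removed, an alternative added after seeing the data, the groups did not overlap for 1 member, Il10, lower as in 2.50% of all genes (2.89% were higher). Leaving out single mice turned the sign of Il20rb (edgeR, -0.029 to 0.165), Il20ra (limma, -0.240 to 0.034) and Il10ra (limma, -0.295 to 0.120), differences near 0. The filter of edgeR's filterByExpr removed Il20 and Il24, which then had no value. At 0 to 35 counts per mouse, the depth limits what can be said of these genes, and the cause of the length trend in control replicate 2 (TBX20fl/fl) was not tested.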
